A study of Mus musculus with 2 samples.

Results

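Hepatokines are proteins that the liver secretes into blood and that act on other tissues, on lipid and glucose handling or on mineral balance. The 9 genes described here are Ahsg, Fetub, Lect2, Angptl4, Angptl6, Fgf21, Inhbc, Inhbe and Gdf15. They were chosen by symbol, and all 9 were found by gene identifier in both gene tables and both transcript tables, as 9 of 43346 Ensembl genes with 16 annotated transcripts. The source is the liver of 1 female C57BL/6J mouse aged 10 weeks, an inbred laboratory strain with no treatment given in the labels. It was measured by sequencing of polyA RNA in 2 libraries that the labels call technical replicates 2 and 1 of biological replicate 1. The labels date library 2 and give no date for library 1. The study has no second animal and no second condition, so the values give the level of each hepatokine transcript in this liver and its difference between the libraries. A mean ± SD is over these 2 technical libraries (n = 2), and date, handling and library cannot be told apart.

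As background, the hepatokines belong to a few protein families that reach their targets in different ways. Fetuins are abundant plasma glycoproteins of the cystatin superfamily. Angiopoietin-like proteins regulate lipases and blood vessels, and Angptl4 and Fgf21 are induced in liver by the fasting receptor PPAR alpha. Inhbc, Inhbe and Gdf15 code for ligands of the TGF-beta superfamily, which are cut from precursors by furin-like proteases and bind receptor kinases or, for Gdf15, the receptor Gfral of the hindbrain.

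In these libraries the hepatokine genes ranged in level from Ahsg, at 8654 TPM in library 2 and 2005 TPM in library 1, to Fgf21, at 0.96 TPM in library 2 and 0 in library 1, and each of the 9 read more TPM in library 2 than in library 1. TPM is the deposited abundance per transcript length, scaled to a fixed total in each library. Together the hepatokine genes held 0.938% of this total in library 2 and 0.224% of it in library 1 (mean 0.581 ± 0.505%, SD). Among nuclear protein-coding genes alone they took 1.27% in library 2 and 0.596% in library 1. Ahsg made up 92.3% of their summed TPM in library 2 and 89.5% in library 1. At least 1 TPM was reached by 8 of the 9 genes in library 2 and by 6 of the 9 in library 1. Of 21461 nuclear protein-coding genes, 10679 reached it in library 2 and 8600 in library 1.

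Depth was 19525500 expected counts for library 2 and 23309905 for library 1. Mitochondrially encoded genes held 14.9% of TPM in library 2 and 40.7% in library 1, which leaves nuclear genes a smaller part of the fixed total in library 1. Nuclear protein-coding genes held 73.7% in library 2 and 37.6% in library 1. The remaining genes, of neither kind, also held a larger part in library 1. Hepatocyte markers were high, with all 8 detected and a summed level of 72521 TPM in library 2 and 30587 TPM in library 1. Markers of other cells were lower, with sums of 168 and 69.3 TPM for Kupffer cells, 144 and 70.8 TPM for sinusoidal endothelium, 187 and 185 TPM for stellate cells, 64.3 and 49.3 TPM for bile duct and 2063 and 138 TPM for red blood cells, in library 2 and library 1 in that order. The TPM of a bulk tissue cannot separate fewer cells of a type from less RNA per cell.

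To compare the libraries, rounded counts were scaled by the trimmed mean of M-values (TMM), and each gene with a summed count of at least 20 had a two-sided exact binomial test, adjusted by the Benjamini-Hochberg method over 12728 genes. Calls required an adjusted p below 0.05 together with a log2 fold, library 2 over library 1, of 1 or more in either direction. Such a test sets the reads of one library against those of the other, not conditions, and the 95% intervals hold counting error alone. Of all tested genes 56.5% were called, 32.7% higher and 23.8% lower in library 2. Of the 8 hepatokine genes that could be tested, 6 were called higher, 0 lower and 2 were not called, with a median log2 fold of 1.40 against 0.04 over all genes tested. Fgf21 had too few counts to be tested.

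**Figure D1:**
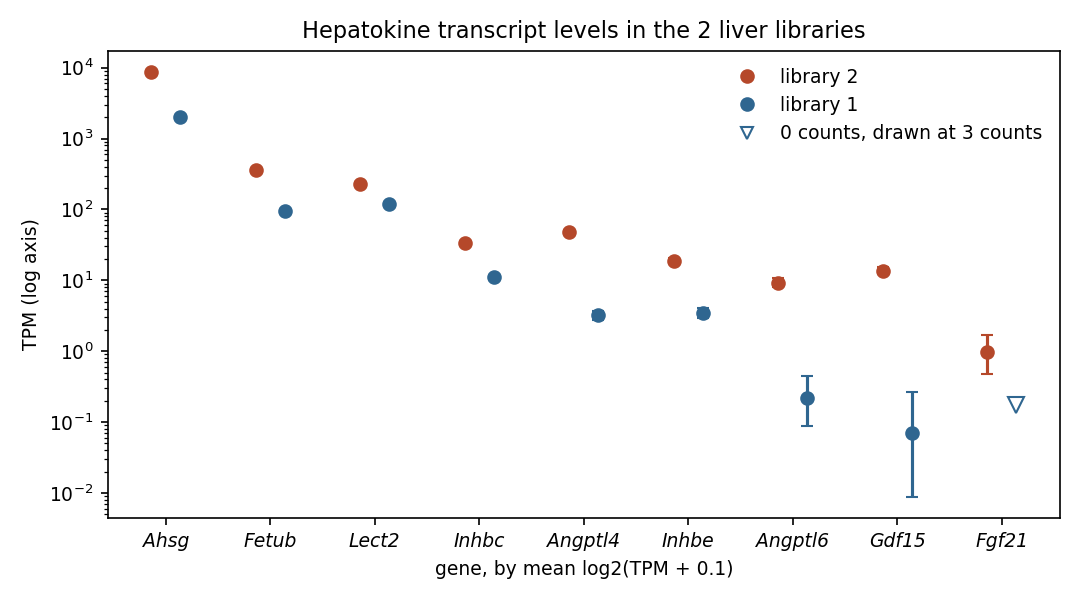
Deposited TPM (log axis) of each hepatokine gene in library 2 and library 1, ordered by mean log2(TPM + 0.1), with exact Poisson 95% intervals that cover counting error only. Library 2 lies above library 1 for every gene, by the least for Lect2 (232 and 120.2 TPM) and by the most for Gdf15 (13.7 and 0.07 TPM), and the open triangle marks Fgf21, with 0 counts in library 1.

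The fetuins were the most abundant members. Ahsg codes for fetuin-A, which binds calcium phosphate in plasma and inhibits the insulin receptor kinase (ENSMUSG00000022868.5, chromosome 16, 22891277 to 22899449, plus strand, GRCm38). It read 8654 TPM in library 2, from 171793 counts, and 2005 TPM in library 1, from 59007 counts (mean 5330 ± 4702, SD). That placed it at rank 6 of 21461 nuclear protein-coding genes in library 2 and at rank 20 in library 1. Its TMM log2 fold was 1.22 (95% interval 1.21 to 1.23), and it was called higher in library 2. Fetub codes for fetuin-B, which inhibits the egg protease ovastacin and is required for fertility of female mice (ENSMUSG00000022871.8, chromosome 16, 22918334 to 22939778, plus strand). Fetub read 365 TPM in library 2 and 96.6 TPM in library 1 (mean 231 ± 189, SD), with a log2 fold of 1.10 (1.03 to 1.16), and was called higher. The 2 fetuin genes kept close to the same proportion, with 23.7 times as much Ahsg as Fetub TPM in library 2 and 20.8 times in library 1.

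Ahsg and Fetub are neighbours on chromosome 16, with 18884 bases between them and the same strand. Next to Fetub lies Hrg, the gene of the related cystatin-family plasma protein histidine-rich glycoprotein, at 983 TPM in library 2 and 694 TPM in library 1. Hrg had a log2 fold of −0.39 and was not called. On the other side of Ahsg, the chaperone gene Dnajb11 read 53.4 TPM in library 2 and 27.2 TPM in library 1, with a log2 fold of 0.11, and was not called either (adjusted p = 0.069, exact binomial test). The genes beside Angptl4 (Rab11b, log2 fold 1.39, and Kank3, 2.74) and Gdf15 (Lrrc25, 3.35, and Pgpep1, 1.45) were called higher. So were Ppan beside Angptl6 (4.90), Bcat2 beside Fgf21 (3.05) and Tgfbi beside Lect2 (1.08). Fbxl21 beside Lect2 (−0.17) and R3hdm2 beside Inhbc (−0.24) were not called, and Rdh8, Fut1 and Gli1 had too few counts to be tested. Of all genes tested, 32.7% were called higher.

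Fetub is annotated with 4 transcripts that differ in their start. Starts and coding lengths are from GENCODE M21, while the shares rest on the older deposited annotation. Fetub-202 has 1338 bases in the deposited annotation and 1094 in M21, and Fetub-201 has 1573 and 1544. Fetub-201, which starts at base 22920237, held 84.2% of the gene's TPM in library 2 and 48.2% in library 1. Fetub-203, with a start at 22921745 and the same coding length of 1164 bases, held 5.99% and 31.3%, and the shorter-coding Fetub-202 held 9.77% and 20.6%, in library 2 and library 1 in that order. The most upstream transcript, Fetub-204, had 0 counts in both libraries. The estimated counts of Fetub-201 were 6565 with a deposited posterior SD of 99.2 in library 2 and 1473 with 134 in library 1, those of Fetub-203 415 with 86.6 and 851 with 134. The shares of both therefore differed between the libraries by more than the estimator's own spread, and no test was made.

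The RefSeq promoter table lists 2 starts for Fetub, one at base 22918382, the first base of Fetub-204, and the other at 22920222, just before Fetub-201. The 150 bases before each are shown because one start belongs to a transcript without counts and the other lies beside the leading transcript. Capitals mark the motifs searched on both strands, which were the TATA box letters TATAAA, the CCAAT box and the GC box letters GGGCGG.
Fetub, start of Fetub-204 (chr16:22918232-22918381, plus strand, GRCm38.p6): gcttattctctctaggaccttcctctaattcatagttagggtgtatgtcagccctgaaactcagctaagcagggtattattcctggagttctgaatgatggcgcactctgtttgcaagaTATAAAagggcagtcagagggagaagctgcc
Fetub, start near Fetub-201 (chr16:22920072-22920221, plus strand, GRCm38.p6): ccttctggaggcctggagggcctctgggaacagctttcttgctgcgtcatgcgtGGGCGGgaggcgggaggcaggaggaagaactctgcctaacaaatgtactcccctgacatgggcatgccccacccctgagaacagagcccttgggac
The upstream window had 46.0% GC and held TATAAA, which 7.57% of the 32851 promoter windows of the same length hold on either strand. The window near Fetub-201 had 62.0% GC and held GGGCGG, found in 28.6% of the windows. CCAAT, present in 24.5% of them, was in neither. These matches are letters only and describe no bound factor.

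Lect2 had the smallest TMM fold of the hepatokine genes tested. It codes for a chemoattractant of neutrophils that hepatocytes secrete (ENSMUSG00000021539.8, chromosome 13, 56542464 to 56548502, minus strand). Lect2 read 232 TPM in library 2, from 2466 counts, and 120.2 TPM in library 1, from 1901 counts (mean 176 ± 78.9, SD). Its TMM log2 fold was 0.05 (−0.03 to 0.14) and it was not called (adjusted p = 0.26, exact binomial test). After either of the GC curves described further on, its log2 fold was 0.51 (transcript GC) or 0.71 (coding GC), larger than that of Ahsg (0.44 and 0.26) and of Fetub (0.22 and 0.41). With TPM rescaled to nuclear protein-coding genes alone, Lect2 read 314 in library 2 and 319.8 in library 1, whereas Ahsg read 11738 in library 2 and 5337 in library 1.

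The angiopoietin-like genes differed more. Angptl4 codes for a secreted inhibitor of lipoprotein lipase (ENSMUSG00000002289.11, chromosome 17, 33773750 to 33781830, minus strand). It read 48.0 TPM in library 2, from 1413 counts, and 3.24 TPM in library 1, from 188 counts, a TMM log2 fold of 2.58 (2.37 to 2.81), and was called higher. Angptl6 codes for a growth factor that in mice counteracts obesity (ENSMUSG00000038742.6, chromosome 9, 20873808 to 20879727, minus strand). Angptl6 had 9.30 TPM and 200 counts in library 2, and 0.22 TPM and 7 counts in library 1. Its log2 fold of 4.42 carried an interval of 3.44 to 5.85, and it was called higher. The ratio of Angptl4 to Angptl6 TPM was 5.16 in library 2 and 14.7 in library 1, where it rests on 7 counts of Angptl6.

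The leading Angptl4 transcript was not the same in the 2 libraries. Angptl4-202, which the annotation classes as subject to nonsense-mediated decay, held 76.8% of the gene's TPM in library 2 and 27.5% in library 1. The full-length coding Angptl4-201 held 21.6% in library 2 and 72.5% in library 1. In counts, Angptl4-202 was estimated at 950 with a posterior SD of 29.6 in library 2 and at 34.1 with 11.3 in library 1, and Angptl4-201 at 459 with 29.7 and 154 with 11.4. All 1859 bases of Angptl4-202 are also in Angptl4-201 of GENCODE M21. The bases found only in Angptl4-201 are 287 at its 5′ end (55.4% GC), 4 at a splice site and 1158 at its 3′ end. That 3′ stretch had 40.5% GC, against 56.4% in the shared bases. The deposited annotation gives Angptl4-201 a length of 3053 bases and M21 one of 3308, so the ends differ somewhat between the annotations. The deposited gene length of Angptl4 was 2096 bases in library 2 and 2725 in library 1. Its TPM, and so its place among the hepatokine genes, therefore also depends on the estimated transcript shares.

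The splice difference lies in the coding sequence, in exon 3 of Angptl4-201 (chr17:33780644-33780647, minus strand). It is shown with 20 coding bases on each side because these 4 bases, in capitals, shift the reading frame between the transcripts.
Angptl4-201: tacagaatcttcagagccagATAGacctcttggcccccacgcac
Angptl4-202: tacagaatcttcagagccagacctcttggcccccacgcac
Without them the annotated coding sequence was 462 bases long in Angptl4-202, compared with 1230 in Angptl4-201.

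**Figure D2:**
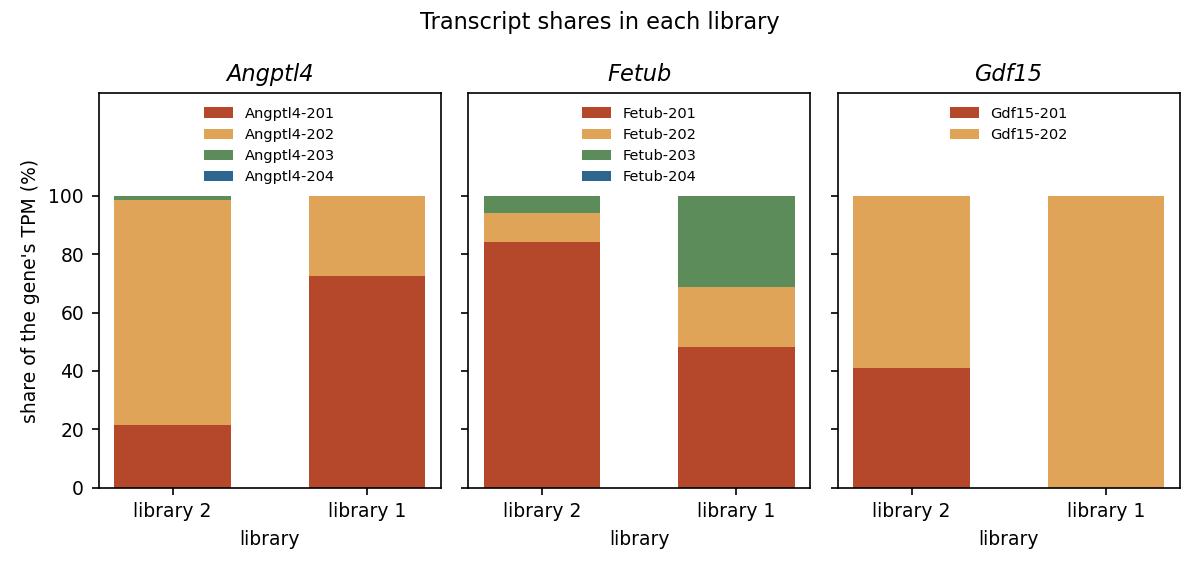
Share of each gene's TPM (%) in its annotated transcripts, with library 2 left of library 1, for the 3 hepatokine genes with more than 1 transcript. Angptl4-202 holds 76.8% in library 2 and 27.5% in library 1, Fetub-201 holds 84.2% and 48.2%, and the library 1 bar of Gdf15 rests on 2 counts.

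Among the TGF-beta superfamily genes, Inhbc and Inhbe code for the inhibin beta C and beta E subunits, whose dimers are activins made mainly by hepatocytes. They are neighbours on chromosome 10 and on the same strand, with 1910 bases between them. Inhbc (ENSMUSG00000025405.8, 127356322 to 127370431) read 33.9 TPM in library 2, from 930 counts, and 10.97 TPM in library 1, from 446 counts. Its log2 fold was 0.74 (0.57 to 0.90), under the size needed for a call. Inhbe (ENSMUSG00000047492.4, 127348857 to 127354411) read 18.9 TPM in library 2, from 568 counts, and 3.42 TPM in library 1, from 152 counts. Its log2 fold was 1.58 (1.32 to 1.85) and it was called higher. Inhbc exceeded Inhbe in both libraries, 1.79-fold in library 2 and 3.21-fold in library 1. The deposited table gives Inhbe 2135 bases while its M21 transcript has 5319, so the level of Inhbe relative to other genes depends on the gene model.

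Gdf15 codes for a stress-induced ligand that lowers food intake through Gfral (ENSMUSG00000038508.7, chromosome 8, 70629393 to 70632456, minus strand). It had 267 counts and 13.7 TPM in library 2, but 2 counts and 0.07 TPM in library 1, where the exact Poisson 95% interval is 0.0089 to 0.265 TPM. The TMM log2 fold of 6.42 (4.87 to 9.79) was the highest of the hepatokine genes tested. In library 2 its 2 transcripts shared the gene almost evenly, with 59.1% in Gdf15-202 and 40.9% in Gdf15-201, and the counts of each had a posterior SD of 25.5. Their coding sequences have the same length of 909 bases, and they start at 70632456 (Gdf15-202) and 70632095 (Gdf15-201).

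Fgf21 was near the limit of detection. It codes for an endocrine fibroblast growth factor that needs the co-receptor Klb (ENSMUSG00000030827.4, chromosome 7, 45613886 to 45615490, minus strand). Fgf21 had 11 counts in library 2, or 0.96 TPM with an exact Poisson 95% interval of 0.479 to 1.72, and 0 counts in library 1. The limit that no counts allow, 3 counts, corresponds to 0.176 TPM in library 1. Set against 3 counts in library 1, Fgf21 was at least 2.93-fold higher in library 2 after TMM scaling, a log2 fold of 1.55 that takes its 11 counts as exact. Exocrine pancreas and fat also make Fgf21, and fat makes Angptl4. Of 7 pancreas markers 1 reached 1 TPM in library 2 and 0 did in library 1, with sums of 9.38 TPM and 0.98 TPM, and Cpa1 and Prss2 had 0 counts in both. Most of these sums came from Cela1, at 8.28 TPM in library 2 and 0.86 TPM in library 1. Adipocyte markers summed to 9.61 TPM in library 2 and 3.60 TPM in library 1, with 2 and 1 of 7 at 1 TPM or more, and Lep had 0 counts in both. Most of these sums came from Pparg, at 5.66 TPM in library 2 and 3.21 TPM in library 1, while Adipoq read 0.65 and 0.20 TPM. The part of pancreas and fat in the Fgf21 and Angptl4 values was not tested.

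Ordered by mean log2(TPM + 0.1), the levels ran Ahsg (12.02 ± 1.49, SD), Fetub (7.55 ± 1.35), Lect2 (7.38 ± 0.67), Inhbc (4.28 ± 1.14), Angptl4 (3.66 ± 2.72), Inhbe (3.03 ± 1.72), Angptl6 (0.79 ± 3.45), Gdf15 (0.62 ± 4.49) and Fgf21 (−1.62 ± 2.41). Only Ahsg stood apart from Fetub, and Lect2 from Inhbc, by ranges of the 2 libraries that did not overlap. All 6 other neighbouring pairs overlapped, and 4 of the 8 neighbouring pairs changed places between the libraries: Fetub lay above Lect2, Angptl4 above Inhbc and Gdf15 above Angptl6 in library 2 but below them in library 1, and Angptl4 lay above Inhbe in library 2 and just below it in library 1 (3.24 and 3.42 TPM). Over the 2 libraries, the protein-coding gene nearest in log2(TPM + 0.1) was Serpina1b for Ahsg (7340 and 2088 TPM), Sqstm1 for Lect2 (233 and 121 TPM), Zmiz2 for Angptl6 (9.55 and 0.22 TPM) and Med25 for Gdf15 (14.2 and 0.08 TPM), each with library 2 before library 1. A likeness over 2 libraries of 1 animal says only that the levels are close.

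The library difference of the hepatokine genes broadly went with the GC content of their coding sequence, with Inhbc and Inhbe out of order. The choice of genes did not use GC content, but coding GC was taken up after the data were seen. Mean GC over the annotated coding transcripts was 47.8% for Lect2, 53.4% for Fetub, 54.3% for Ahsg, 56.7% for Inhbc, 57.6% for Angptl4, 58.9% for Inhbe, 64.2% for Angptl6 and 66.6% for Gdf15, and their TMM log2 folds in that order were 0.05, 1.10, 1.22, 0.74, 2.58, 1.58, 4.42 and 6.42. Fgf21 had 58.7% GC. Its log2 fold of 1.55 is only a lower bound, so it cannot be placed above or below the median of its GC class given next. Across 11965 tested nuclear protein-coding genes, which are not independent, fold and coding GC had a Spearman's rho of 0.76. The median log2 fold of all such genes was −0.72 at 45 to 50% GC (2785 genes), 0.35 at 50 to 55% (3392), 1.90 at 55 to 60% (3005), 2.65 at 60 to 65% (1012) and 1.26 at 65% and over (203). Lect2, Ahsg and Fetub lay above the median of their class, Angptl4, Angptl6 and Gdf15 also did, and Inhbc and Inhbe lay below it. By GC content of the whole transcript the order differed. Angptl4, at 50.7%, lay below Ahsg (52.5%), Fetub (52.8%) and Inhbc (53.4%) but had a larger fold than each of them.

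The most GC-rich 120 bases within 1 coding exon of Gdf15, Angptl6 and Lect2 are printed as the extremes of this range, from the M21 transcripts, 5′ to 3′ in coding direction. Capitals mark runs of at least 4 G or C.
Gdf15 (chr8:70629970-70630089, minus strand): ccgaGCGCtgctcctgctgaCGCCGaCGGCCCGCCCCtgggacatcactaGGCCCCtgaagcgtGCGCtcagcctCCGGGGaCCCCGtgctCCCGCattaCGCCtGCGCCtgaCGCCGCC
Angptl6 (chr9:20878325-20878444, minus strand): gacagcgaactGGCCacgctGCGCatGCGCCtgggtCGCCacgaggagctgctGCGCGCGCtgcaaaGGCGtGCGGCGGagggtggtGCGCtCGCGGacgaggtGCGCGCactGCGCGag
Lect2 (chr13:56542708-56542827, minus strand): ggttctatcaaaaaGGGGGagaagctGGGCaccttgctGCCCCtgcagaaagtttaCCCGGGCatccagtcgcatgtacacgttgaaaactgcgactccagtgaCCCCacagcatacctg
These windows held 62, 56 and 25 bases in such runs, and had 74.2% GC for both Gdf15 and Angptl6 and 55% for Lect2. Along the coding sequence, 67.1% of windows of this length reached 65% GC in Gdf15 and 46.0% in Angptl6. The corresponding share was 15.2% in Angptl4, 13.5% in Fgf21, 2.86% in Fetub, 2.13% in Inhbc and 0% in Ahsg, Inhbe and Lect2.

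**Figure D3:**
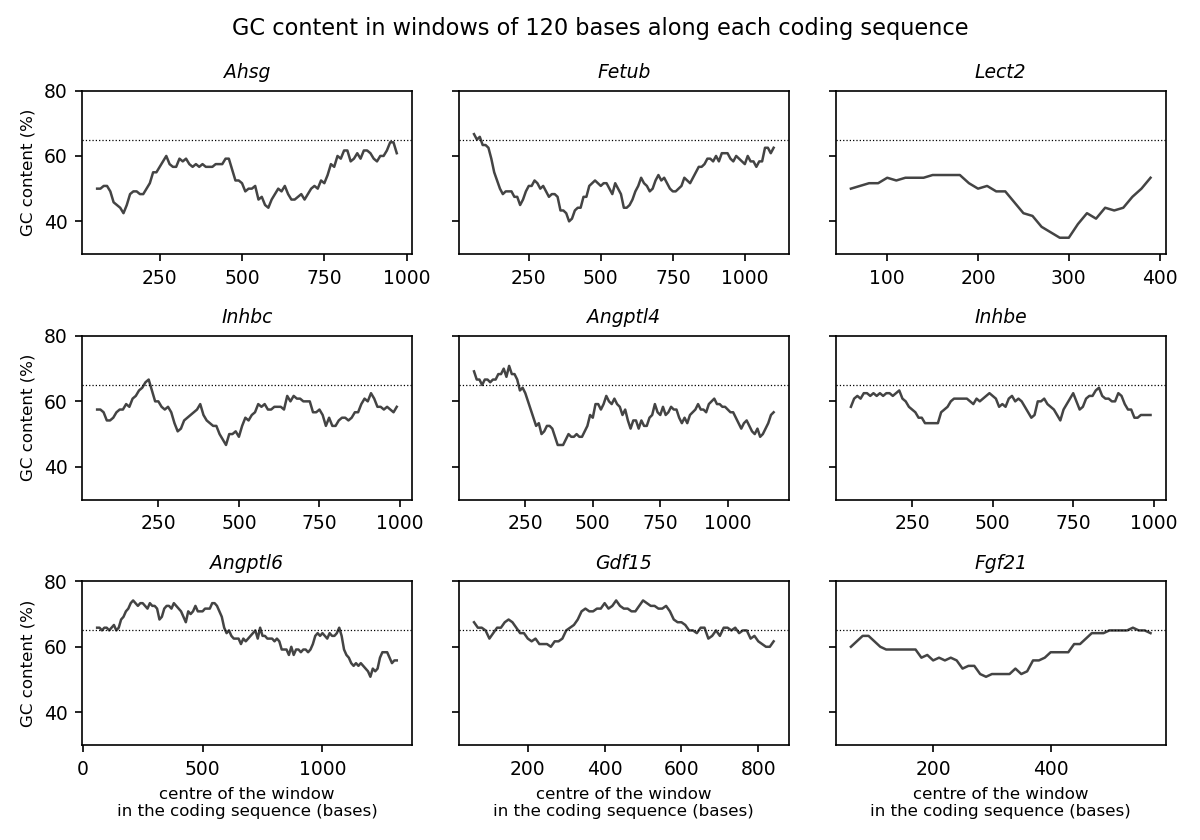
GC content (%) in windows of 120 bases, placed every 10 bases along the coding sequence of the first-named transcript of each hepatokine gene, in the order of their levels. The dotted line is 65% GC, which Gdf15 reaches in 67.1% of windows and Angptl6 in 46.0%, while Lect2 stays under it throughout.

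**Figure D4:**
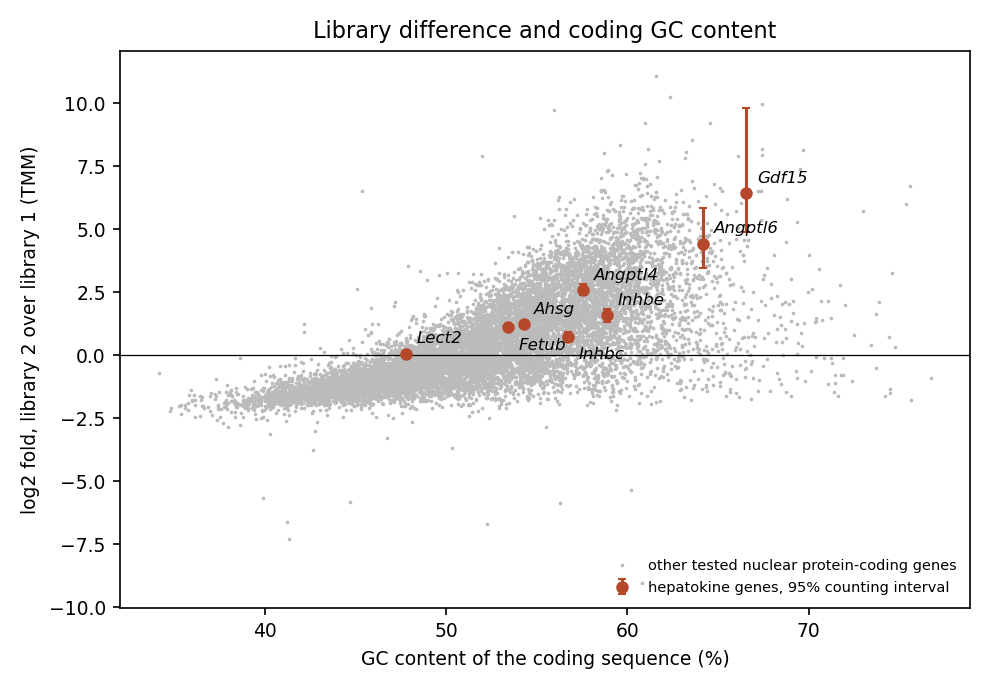
TMM log2 fold of library 2 over library 1 against coding GC content (%) for 11965 nuclear protein-coding genes (grey) and the 8 tested hepatokine genes (red, with 95% counting intervals). Lect2 sits at 47.8% GC and a fold of 0.05, and Gdf15 at 66.6% and 6.42.

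How many hepatokine genes were called depends on whether GC content is taken into account. Scaling by total count moved the median over all genes to 0.62, with 41.9% of genes higher and 7.46% lower in library 2 in place of 32.7% and 23.8%. Under it 7 of 8 hepatokine genes were called higher, and Lect2, at 0.63, was not. After a smooth curve of fold on transcript GC was subtracted, 9.25% of all genes were called higher. Of the 7 hepatokine genes with a transcript GC value, Angptl4 (2.36) and Gdf15 (2.52) were called higher and 5 were not called, with Inhbc at −0.34. The transcript GC used for Angptl4, 50.7%, is that of Angptl4-201, which held 21.6% of the gene's TPM in library 2. Angptl4-202, with 56.4% GC, held 76.8% there and did not enter the value. A curve on coding GC, which was chosen after the data were seen and covers all 8, left 15.7% of all genes called higher and 16.5% lower. With that curve Gdf15 (4.28) and Angptl6 (1.96) were called higher and Inhbc (−1.08) lower, and Angptl4 had a log2 fold of 0.57. Gdf15 was the only hepatokine gene called higher under all 4 of these scalings, and it rests on 2 counts in library 1.

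**Figure D5:**
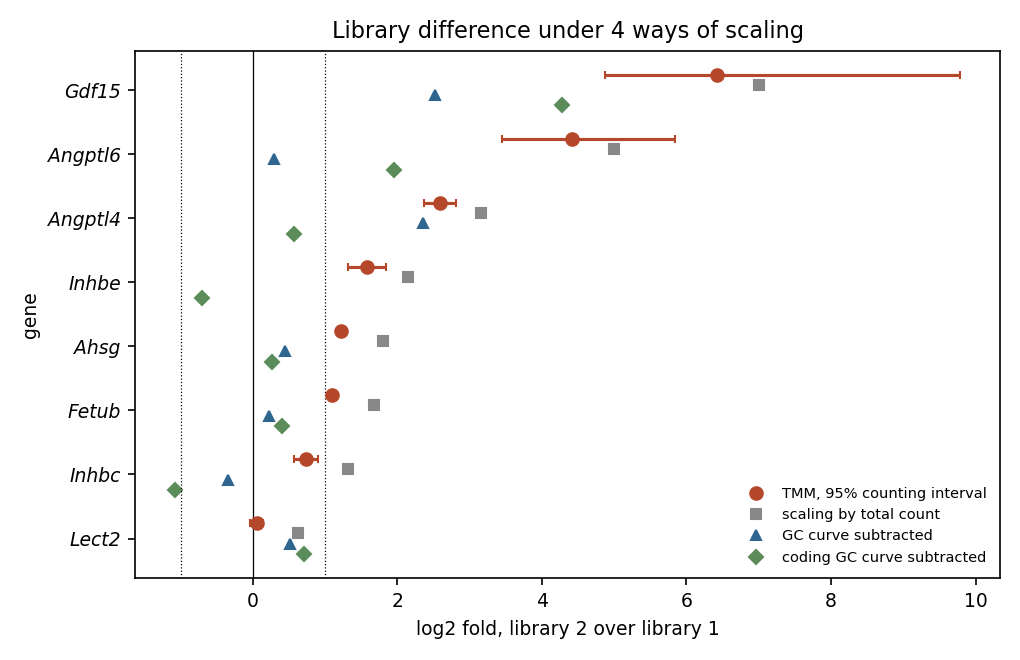
Log2 fold of library 2 over library 1 for the 8 tested hepatokine genes under TMM (with 95% counting intervals), total-count scaling and after subtraction of either GC curve. Dotted lines mark a log2 fold of 1 in either direction. Inhbe has no value for the transcript GC curve, and Inhbc lies at 0.74 under TMM and −1.08 after the coding GC curve.

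The receptors and co-receptors for these hormones were mostly low in liver. Of 20 listed genes 16 could be tested, and 5 were called higher, 5 lower and 6 not called, with a median log2 fold of −0.32. Of all genes tested, 32.7% were called higher and 23.8% lower under TMM. With total-count scaling these shares were 41.9% and 7.46%, and after the coding GC curve 15.7% and 16.5%. The same shares apply to the lists that follow. Among the listed receptors total-count scaling gave 6 higher and 2 lower, and the coding GC curve 2 higher and 3 lower. The highest by mean TPM over both libraries were Fgfr2, a fibroblast growth factor receptor (26.5 TPM in library 2 and 25.1 in library 1, log2 fold −0.30, not called), the hepatocyte growth factor receptor gene Met (19.7 and 23.6, −1.19, lower), the insulin receptor gene Insr (17.2 and 23.0, −1.31, lower) and the activin receptor gene Acvr2a (6.33 and 13.2, −1.98, lower). Under total-count scaling Met (−0.61) and Insr (−0.73) were not called. Gfral had 0 counts in both libraries. Chosen after their values were seen, the Fgf21 co-receptor Klb read 11.7 TPM in library 2 and 5.51 TPM in library 1, and was not called (log2 fold 0.19). Fgfr4 read 17.4 TPM and 0.38 TPM, with a log2 fold of 4.50, and was called higher.

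Partners, inhibitors and processing enzymes had 6 genes called higher, 1 lower and 8 not called of 15 tested (median log2 fold 0.67). Of all genes tested, 32.7% were called higher and 23.8% lower. In this list total-count scaling gave 8 higher and 0 lower, and the coding GC curve 4 higher and 3 lower. The highest by mean TPM were the kininogen gene Kng1 (1451 TPM in library 2 and 1202 in library 1, log2 fold −0.49), Hrg, Kng2 (222 and 139, −0.21) and hepatic lipase, Lipc (186 and 55.3, 0.86), and none of the 4 was called. Inha, the inhibin alpha subunit gene, had 0 counts in both. Lpl, the lipoprotein lipase that Angptl4 inhibits, was the 1 lower gene under TMM (5.74 TPM in library 2 and 7.80 TPM in library 1, −1.33) and was not called with total-count scaling (−0.75), and the protease gene Furin was called higher (53.2 TPM and 1.59 TPM, 3.95). Kng1 and Kng2 are near-identical paralogs, so the division of reads between them is uncertain.

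Transcription factors that act on hepatokine genes had 7 called higher, 4 lower and 7 not called of 18 (median 0.62). Of all genes tested, 32.7% were called higher and 23.8% lower. For these factors total-count scaling gave 10 higher and 1 lower, and the coding GC curve 1 higher and 4 lower. Hnf4a (172 TPM in library 2 and 49.7 in library 1, log2 fold 0.90) and Xbp1 (139 and 71.9, 0.11) were not called, and the carbohydrate-response factor Mlxipl (189 and 21.5, 1.88) and Creb3l3 (156 and 20.1, 1.98) were called higher. The 12 fasting and PPAR alpha target genes had 1 called higher, 0 lower and 11 not called (median −0.01), against 4 higher and 0 lower with total-count scaling and 2 higher and 1 lower after the coding GC curve. The 1 higher gene, named after its value was seen, was the lipid droplet gene Plin2 (334 TPM in library 2 and 49.0 TPM in library 1, log2 fold 2.10). Fabp1 (8641 and 2625 TPM, 0.82), Cyp4a10 (901 and 711, −0.55) and Cyp4a14 (686 and 574, −0.64) were abundant, in contrast to Fgf21, which PPAR alpha also induces.

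Of 12 amino acid and stress response genes 8 could be tested, and 6 were called higher, 0 lower and 2 not called (median 2.16), at low levels. The shares over all genes tested were 32.7% higher and 23.8% lower. Mdm2 read 12.9 TPM in library 2 and 10.3 TPM in library 1 (log2 fold −0.52, not called). Ddit4 (9.13 and 1.08 TPM, 2.17), Ppp1r15a (7.02 and 0.36 TPM, 3.22) and Trib3 (5.79 and 0.24 TPM, 3.49) were called higher, and Slc7a11 had 0 counts in both. The median coding GC of this list was 57.5%, against 51.2% for the fasting and PPAR alpha targets, and after the coding GC curve 1 of its 8 tested genes was called higher and 1 lower, against 7 higher and 0 lower with total-count scaling. The part of GC content in these counts was not tested further.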

How the data were processed

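The authors deposited, for each library, a gene and a transcript table with expected counts (estimated, unscaled counts per feature), TPM and, for transcripts, isoform shares in percent of the gene's TPM, with a posterior SD of the count. Per the file headers and the deposited file descriptions, they rest on mm10 alignments with annotation M4; the sources used here do not give the quantification tool or the use of strand. Symbols, coordinates and transcript sequences came from GENCODE M21 of GRCm38, and promoter sequences from RefSeq (GRCm38.p6), which matched 8 of the 9 genes. Counts were rounded and scaled with TMM (edgeR 4.0.16, R 4.3.3; factors 1.22 for library 2 and 0.818 for library 1) over the 12728 genes whose counts summed to 20 or more, and library sizes were all counts of a library. Folds were computed with 0.5 as the prior count. edgeR's quasi-likelihood test could not be fitted with 1 library on each side, so exact binomial tests with Benjamini-Hochberg adjustment were made genome-wide. They were tested on simulated Poisson counts with known folds and no GC shift. Such a simulation cannot show how the test behaves on these libraries. GC curves were loess fits (span 0.3) on nuclear genes. Transcript GC was the mean over coding transcripts whose M21 length lay within 10% of the deposited one. Log levels were computed as log2(TPM + 0.1). Scaling by DESeq2 1.42.0 and other settings are given in the closing section. Members and gene lists were chosen with earlier results of these data known. From each list the 4 highest genes by mean TPM and those with 0 counts in both libraries are named, with the nearest gene in level and the nearest protein-coding gene on each side of each hepatokine gene; not all are printed, and some are not reported here. Klb, Fgfr4, Lpl, Furin, Plin2 and the genes of the last section were chosen after their values were seen. With PCR reads, intervals and floors cover counting error only.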

Additional observations from a re-analysis of the deposited data

How the results depend on the processing

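No paired analysis was possible because the series has 1 group. Of the 8 tested hepatokine genes, 6 were called higher under TMM. Each GC curve left 2, the transcript GC curve over 7 genes because Inhbe has no value for it. The coding GC curve made 1 lower call in place of 0. The median log2 fold of the 8 hepatokine genes was 1.40, and became 1.98 with total-count scaling, 2.27 from TPM ratios and 0.49 after the coding GC curve. After the transcript GC curve it was 0.44, over the 7 genes without Inhbe. Among all genes tested the median was 0.04 under TMM, 0.62 with total-count scaling and 0.84 from TPM ratios. It was −0.0021 after the transcript GC curve and −0.022 after the coding GC curve. Over all genes, 4165 were called higher and 3027 lower; the transcript GC curve gave 1120 and 1182, the coding GC curve 1878 and 1980, a summed count of at least 200 gave 2650 higher, total-count scaling 950 lower, and the adjusted p alone 5172 lower. The coding GC curve reversed the direction of both activin genes, with Inhbc at −1.08 and Inhbe at −0.70, and Inhbc was also negative after the transcript GC curve (−0.34); their cause was not tested. DESeq2 size factors and TMM without mitochondrial genes changed no call of a hepatokine gene. The share of TPM in the 9 genes was 0.938% without replicate 1 and 0.224% without replicate 2. In library 1 the values of Fgf21, Gdf15 and Angptl6 rest on 0, 2 and 7 counts, which limits the precision of their folds, although library 1 has the larger total count.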

Other observations

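Other liver-secreted factors were called in both directions under TMM. Of 24 listed genes 23 were tested, and 13 were called higher, 5 lower and 5 not called under TMM (median log2 fold 1.18), while scaling by total count gave 14 higher and 0 lower, and the coding GC curve 6 higher and 4 lower. Genes at large were also called in both directions, 32.7% higher and 23.8% lower under TMM. Their shares were 41.9% and 7.46% with total-count scaling, and 15.7% and 16.5% after the coding GC curve. The selenium carrier Selenop read 5319 TPM in library 2 and 5076 TPM in library 1 and was called lower under TMM (log2 fold −1.04), but not under total-count scaling (−0.46). The retinol carrier Rbp4 (3692 and 1629 TPM, 0.29) and the iron hormone Hamp (3543 and 1208 TPM, 0.64) were not called. Epo had 0 counts in both libraries.

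Angptl8, a secreted regulator of blood triglycerides, had 87.7 TPM and 915 counts in library 2, and 0.13 TPM and 2 counts in library 1 (log2 fold 8.19, coding GC 61.1%). It was chosen after its values were seen, as was Enho, the gene of the peptide adropin, with 22.0 TPM in library 2 and 0.20 TPM in library 1. Library 1 alone would list Angptl8, Enho, Gdf15, Angptl6 and Fgf21 under 1 TPM, and in library 2 all of these but Fgf21 read 9.30 TPM or more.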
